A study of Schizosaccharomyces pombe with 14 samples.

Results

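pho1 (SPBP4G3.02) encodes the secreted, cell-surface acid phosphatase of the fission yeast Schizosaccharomyces pombe. The gene was taken by its systematic ID, 1 row of the 6988 identifiers in the deposited count table, and it is followed here over all 14 groups of strain and time. Its messenger RNA stood in the middle range of all genes in growing wild-type cells, and it was the most abundant transcript per kilobase from 8 h without phosphate onwards in wild type. In the maf1 deletion it was already 15.3-fold higher before starvation, could not be told apart from wild type at 4, 8 and 12 h, and was lower at 24, 36 and 48 h, by less than 2-fold.

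The series holds 2 haploid strains, each with poly(A) RNA sequenced at 7 times in 3 replicate experiments, 42 libraries in all. The maf1 deletion (strain AGP256, h+, maf1 replaced by the natMX drug-resistance cassette) lacks Maf1, the conserved repressor of RNA polymerase III. Wild type (strain AGP72) is h-. Cells at 0 h were in log phase in the rich medium YES, and cells at 4, 8, 12, 24, 36 and 48 h were in ePMGT(-PO4), a synthetic medium without phosphate. The labels call 4 to 12 h limited growth and 24 to 48 h quiescence. Each genotype is 1 strain, so genotype, mating type and strain background cannot be told apart. The same holds for the loss of phosphate and the change of medium, which happened together between 0 h and 4 h. Nothing in the labels says whether the 3 replicates were separate cultures, so p-values measure the spread between these libraries, which may be technical.

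Fission yeast answers phosphate shortage with a small set of genes for phosphate capture. Pho1 releases phosphate from organic esters outside the cell, Pho84 imports inorganic phosphate, and Tgp1 imports glycerophosphodiesters. All of them need the zinc-finger activator Pho7. While phosphate is plentiful, each of these genes is known to be held down by transcription of a long noncoding RNA that starts upstream and runs across its promoter. These RNAs are named nc-pho1 or prt (upstream of pho1), prt2 (upstream of pho84) and nc-tgp1 (upstream of tgp1). Early termination of the noncoding transcript, which depends on the cleavage and polyadenylation machinery and on inositol pyrophosphates, relieves the repression.

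Library totals were 33249827 to 42808200 counts in the maf1 deletion and 12157201 to 26359389 counts in wild type, so depth differed between strains in every comparison of them. The maf1 row held 1.59 to 7.13 CPM (counts scaled to a common library size, with TMM, the trimmed mean of M values) in deletion libraries, against 20.9 to 106 CPM in wild-type libraries, with no overlap. mam2, the pheromone receptor gene of h- (M) cells, was likewise apart. It held 2.26 to 9.60 CPM in the deletion and 56.7 to 221.9 CPM in wild type. The strain-check list held 7 genes: maf1, the M-cell genes mam2, mfm1, mfm2 and mfm3, and the P-cell (h+) genes map2 and map3. At 0 h 5 of the 7 were at least 2-fold lower in the deletion at an edgeR adjusted p under 0.05, and 1 higher. Of all genes, 15.9% were lower and 13.8% higher by that rule. map2, the pheromone gene of h+ (P) cells, did not follow the labels at 0 h, with a mean of 5.88 CPM in the h+ deletion and 108 CPM in h- wild type. At 4, 24, 36 and 48 h 0 of the 7 were higher in the deletion by the same rule, so neither map2 nor map3 was. At 8 h 1 was higher and at 12 h 2, and 5 were lower at each starved time. Of all genes, 1.89 to 14.3% were higher and 4.6 to 8.17% lower at these times.

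pho1 before starvation differed between the strains. The maf1 deletion had 773, 1064 and 1013 CPM of pho1 at 0 h, against 61.1, 68.3 and 57.0 CPM in wild type. Every deletion library lay above every wild-type library. Means were 950 ± 155 CPM in the deletion and 62.1 ± 5.72 CPM in wild type (SD, n = 3 each). The log2 change of the deletion over wild type was 3.94 with a standard error of 0.09 (edgeR quasi-likelihood test with Benjamini-Hochberg adjustment over 6521 genes, adjusted p = 5e-30). A gene was called where the adjusted p was under 0.05 and the change at least 2-fold, and at 0 h this rule called 13.8% of genes higher and 15.9% lower in the deletion. That is 901 genes higher and 1036 lower, against 494 and 1348 with library size alone in place of TMM, where pho1 kept its call. pho1 ranked 26 from the top among the 6521 genes in this comparison. The median gene lay at a log2 change of 0.12.

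pho1 rose over its 0 h level in wild type at all 6 times without phosphate. Wild-type pho1 was 14481, 14514 and 13378 CPM at 4 h, 25692, 26765 and 25983 CPM at 8 h, and 31584, 31538 and 29041 CPM at 12 h. It was 27749, 26690 and 28148 CPM at 24 h, 25508, 24498 and 27067 CPM at 36 h, and 27805, 27416 and 28413 CPM at 48 h. The lowest starved library, at 13378 CPM, stood far above the highest 0 h library, at 68.3 CPM. The log2 changes over 0 h were 7.83, 8.72, 8.95, 8.79, 8.69 and 8.81 at 4, 8, 12, 24, 36 and 48 h, with standard errors of 0.11 to 0.12. The largest edgeR adjusted p of these 6 was 2.68e-36. All 6 comparisons share the same 0 h libraries. The called-higher share of all genes was 16.9% at 4 h, 21.5% at 8 h, 22.1% at 12 h, 22.1% at 24 h, 22% at 36 h and 21.6% at 48 h, and pho1 ranked between 3 and 5 from the top each time.

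pho1 also rose in the maf1 deletion at all 6 times, from a higher 0 h level. Deletion pho1 was 15127, 15255 and 14393 CPM at 4 h, 27815, 28169 and 25568 CPM at 8 h, and 32220, 28440 and 32532 CPM at 12 h. It was 24214, 22763 and 23476 CPM at 24 h, 20501, 19564 and 19168 CPM at 36 h, and 18612, 17178 and 18127 CPM at 48 h. From 12 h to 48 h each group lay wholly below the one before it, although the last step, 48 h over 36 h, had an edgeR adjusted p of 0.184. The share of all genes with such separation was not computed. The log2 changes over the deletion's own 0 h were 3.97, 4.84, 5.03, 4.63, 4.38 and 4.24 at 4, 8, 12, 24, 36 and 48 h, with a largest edgeR adjusted p of 1.12e-30. These ranked 97, 100, 107, 179, 232 and 257 from the top. Called-higher shares were 15.7% of all genes at 4 h, 20% at 8 h, 20.9% at 12 h, 22.2% at 24 h, 22.7% at 36 h and 23.5% at 48 h.

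**Figure D1:**
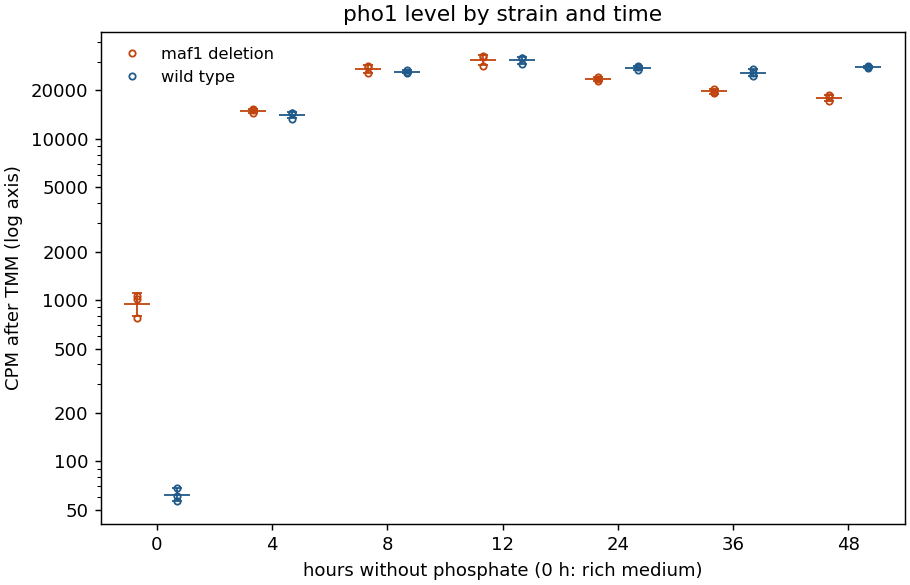
pho1 in CPM (log axis) by hours without phosphate, with maf1 deletion libraries left of wild-type libraries at each time; open circles are single libraries, long bars the mean and capped bars the SD (n = 3 each). The strains stand apart at 0 h (950 against 62.1 CPM on average), overlap at 4, 8 and 12 h, and stand apart again from 24 h, with the deletion lower.

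Most of the pho1 increase was reached by 8 h in both strains. As a percentage of the strain's highest group mean, at 12 h, deletion pho1 was 3.06% at 0 h, 48.0% at 4 h, 87.5% at 8 h, 75.6% at 24 h, 63.6% at 36 h and 57.9% at 48 h. Wild-type pho1 was 0.202% of its 12 h mean at 0 h, 46.0% at 4 h, 85.1% at 8 h, 89.6% at 24 h, 83.6% at 36 h and 90.7% at 48 h. No step between neighbouring starved times reached 2-fold. The 8 h level over the 4 h level came closest, at a log2 change of 0.87 in the deletion and 0.89 in wild type (edgeR adjusted p = 1.59e-11 and 6.27e-12).

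After 12 h the strains diverged. In the deletion, pho1 at 24 h was lower than at 12 h by a log2 change of -0.40 (edgeR adjusted p = 5.41e-05), and at 36 h lower than at 24 h by -0.25 (edgeR adjusted p = 0.0113). At an adjusted p under 0.05 alone, 30.9% and 21.9% of all genes were lower in these 2 steps. The corresponding wild-type steps were -0.16 and -0.10 (edgeR adjusted p = 0.113 and 0.363). The last step, 48 h over 36 h, was -0.14 in the deletion and 0.12 in wild type (edgeR adjusted p = 0.184 and 0.271). Wild-type libraries at 24 h also lay wholly below those at 12 h. The strain difference in these steps was not tested. Over the whole span from 24 h to 48 h, a comparison chosen after the values were seen, deletion pho1 had a log2 change of -0.39, with a 95% interval of -0.55 to -0.22. The same span in wild type gave 0.02, with an interval of -0.15 to 0.18. The difference between these 2 changes was -0.40 (interval -0.64 to -0.17, edgeR adjusted p = 0.00318), under the 2-fold bound. At an adjusted p under 0.05 alone, this difference was lower for 27.7% of all genes and higher for 27.5%. pho1 ranked 920 from the lowest of 6521 genes.

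Between strains at matched times, pho1 could not be told apart at 4, 8 and 12 h. The log2 changes of the deletion over wild type were 0.08 (95% interval -0.09 to 0.24), 0.06 (-0.11 to 0.22) and 0.02 (-0.15 to 0.18), and the libraries of the strains overlapped each time. At 24, 36 and 48 h the deletion mean was 85.3%, 76.9% and 64.5% of the wild-type mean. The log2 changes there were -0.23, -0.38 and -0.63 (edgeR adjusted p = 0.0125, 7.9e-05 and 8.62e-09), and no deletion library reached the lowest wild-type library. None of these 3 differences reached 2-fold, so none was called. At an adjusted p under 0.05 alone, 36.1% of genes were lower in the deletion at 24 h, 38.6% at 36 h and 40.5% at 48 h. Against those shares, a lower level in the deletion was no property of pho1 in particular, and at 48 h it ranked 1085 from the bottom of 6521 genes.

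The change from 0 h was smaller in the deletion than in wild type at every time. The strain difference in that change, on the log2 scale, was -3.86, -3.88, -3.92, -4.17, -4.32 and -4.57 at 4, 8, 12, 24, 36 and 48 h, with a largest edgeR adjusted p of 1.05e-25. These 6 values share the 0 h libraries of both strains, where pho1 differed by 3.94. The called-lower share for this difference was 14.8% of genes at 4 h, 14.8% at 8 h, 16.6% at 12 h, 16.8% at 24 h, 17.9% at 36 h and 18.2% at 48 h. At 24 h this was 1186 genes higher and 1098 lower, against 1516 and 702 with library size alone.

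Ordered by mean, the lowest 2 of the 14 groups were wild type at 0 h and the deletion at 0 h, and neither overlapped the next. Wild type at 4 h and the deletion at 4 h followed and overlapped each other. The deletion at 48, 36 and 24 h came next, each group separate from its neighbours. Wild type at 36 h and 8 h, the deletion at 8 h and wild type at 24 h and 48 h formed a run in which each group overlapped the next. The 12 h groups of wild type and the deletion were the highest and overlapped each other.

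Per kilobase of annotated gene, pho1 ranked 231 of 6836 genes in the deletion at 0 h and 2713 in wild type at 0 h. It ranked 1 in wild type at 8, 12, 24, 36 and 48 h and in the deletion at 8 and 12 h. In the deletion it then ranked 2, 3 and 4 at 24, 36 and 48 h. By CPM, without scaling to length, it ranked 1 in the deletion at 24, 36 and 48 h and 2 in wild type at 36 h. Among all counts, pho1 took 1.51 to 3.29% of starved deletion libraries and 1.42 to 3.06% of starved wild-type libraries. The level of pho1 per kilobase was 1.34 times that of pho84 in the deletion at 0 h and 0.402 times in wild type at 0 h. In starved groups pho1 was 4.97 to 8.34 times pho84 per kilobase in the deletion and 4.69 to 8.42 times in wild type.

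The noncoding RNA nc-pho1 (SPNCRNA.1712), which the deposited tables describe as a translationally silent transcript of the pho1 locus, differed between the strains in the opposite direction to pho1 at 0 h. The deletion had 4.84, 4.09 and 3.42 CPM of nc-pho1 at 0 h, against 19.03, 20.4 and 20.9 CPM in wild type. The groups did not overlap, and the log2 change of the deletion over wild type was -2.28 ± 0.15 (SE, edgeR adjusted p = 1.6e-16). Among the 1263 noncoding RNA genes tested, 33.7% were called lower in the deletion at 0 h, so nc-pho1 shared its direction with many. For every 100 pho1 counts there were 0.438 nc-pho1 counts in the deletion at 0 h and 32.6 in wild type at 0 h.

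During starvation nc-pho1 fell in wild type and stayed low. Its mean was 20.1 CPM at 0 h and 2.51, 3.14, 2.28, 2.64, 1.97 and 1.66 CPM at 4, 8, 12, 24, 36 and 48 h. The log2 changes over 0 h lay between -3.57 and -2.67, all called. Of noncoding genes, 30.4% were called lower at 4 h, 26.5% at 8 h, 28.7% at 12 h, 31.3% at 24 h, 34.5% at 36 h and 35.6% at 48 h. In the deletion, nc-pho1 averaged 4.12 CPM at 0 h and 2.75, 4.07, 5.69, 10.5, 15.8 and 28.9 CPM at the 6 starved times. There it rose at 24, 36 and 48 h, by log2 changes of 1.35, 1.93 and 2.81 over 0 h, where 35.2, 36.7 and 39.7% of noncoding genes were called higher.

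By 48 h the strain difference in nc-pho1 was the reverse of that at 0 h. The deletion had 29.0, 28.2 and 29.6 CPM at 48 h, against 1.22, 1.96 and 1.80 CPM in wild type, with no overlap. The log2 change of the deletion over wild type was 1.26, 1.997, 2.98 and 4.10 at 12, 24, 36 and 48 h, all called. Of noncoding genes, 5.54% were called higher at 12 h, 12% at 24 h, 21.7% at 36 h and 29.6% at 48 h. At 48 h there were 0.161 nc-pho1 counts per 100 pho1 counts in the deletion and 0.00607 in wild type. pho1 was lower in the deletion than in wild type at 24, 36 and 48 h and differed by 0.02 on the log2 scale at 12 h, and the part of nc-pho1 in the pho1 levels was not tested. Starved wild-type groups held only 77 to 177 nc-pho1 counts over 3 libraries. nc-pho1 overlaps pho1 on the same strand in the reference annotation, so strand does not separate their reads, and how reads of the overlap were counted is not given in the sources used here.

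The authors' deposited comparison tables treat this locus differently by strain. Of the 6988 identifiers, the 6 wild-type tables lack 3, which are nc-pho1, prt2 and nc-tgp1, whereas the 7 deletion tables lack 0. In the authors' deposited table for wild type at 4 h, the authors' mean for pho1 at 0 h was 1752, against 1109 recomputed from the count table with the same kind of size factors. Relative to the median of 5965 genes this was 1.43-fold higher and the largest excess of all genes, and only 2 genes, pho1 and tgp1, exceeded a log2 excess of 0.1. pho84 had the lowest log2 excess of all genes in that table, at -0.088 at 0 h and -0.098 at 4 h. At 4 h the same ratio for pho1 was 1.00. In the 12 h table, the authors' 12 h means lay beyond a log2 excess of 0.1 for 1097 of 6004 genes, and the ratio for pho1 was 0.935. The log2 fold changes of pho1 in the authors' deposited tables for wild type were 7.30, 8.16, 8.30, 8.23, 8.15 and 8.26 over 0 h. With pho1 and nc-pho1 counts summed, an alternative chosen after the values were seen, the edgeR log2 changes in wild type were 7.43, 8.31, 8.55, 8.39, 8.29 and 8.41. The deletion over wild type at 0 h was then 3.54, and it was 3.89 in the authors' deposited table. What the authors' wild-type tables counted was not tested.

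pho84 (SPBC8E4.01c) is the gene next to pho1 on the nc-pho1 side; in the reference annotation of the newer assembly the order is ecl3, prt2, pho84, nc-pho1, pho1 and fub2. Like pho1, pho84 was higher in the deletion at 0 h, with 873, 1012 and 995 CPM in the deletion against 188, 245 and 196 CPM in wild type. The log2 change was 2.20 ± 0.07 (SE, edgeR adjusted p = 2.82e-26) and the groups did not overlap. Starved pho84 averaged 3906 to 5833 CPM in the deletion and 3277 to 8071 CPM in wild type. In wild type its mean was higher at each later time up to 48 h, whereas in the deletion it was highest at 24 h. At 48 h pho84 was lower in the deletion than in wild type, with a log2 change of -1.05 (edgeR adjusted p = 8.47e-17).

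The RNA upstream of pho84, prt2, showed the same 0 h pattern as nc-pho1 and a smaller late one. prt2 had 15.4, 17.5 and 16.5 CPM in the deletion at 0 h, against 71.5, 86.3 and 78.7 CPM in wild type, a log2 change of -2.26 (edgeR adjusted p = 2e-24). At 48 h it had 24.8, 24.1 and 26.3 CPM in the deletion and 14.3, 13.0 and 13.4 CPM in wild type, a log2 change of 0.89 that did not reach 2-fold. prt2 and nc-pho1 were thus each lower in the deletion at 0 h and, as means, higher at 48 h.

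tgp1 (SPBC1271.09), the glycerophosphodiester importer gene elsewhere in the genome, differed from pho1 at 0 h. tgp1 had 14.5, 11.2 and 13.5 CPM in the deletion at 0 h, against 45.6, 49.1 and 48.7 CPM in wild type, a log2 change of -1.87 ± 0.09 (SE, edgeR adjusted p = 5.34e-21). So tgp1 was lower in the deletion where pho1 and pho84 were higher, although nc-tgp1 was lower in the deletion as well (log2 change -1.60). tgp1 rose at all 6 times in both strains, to means of 643 to 2178 CPM in the deletion and 882 to 2932 CPM in wild type. At 48 h tgp1 was lower in the deletion by a log2 change of -2.04 (edgeR adjusted p = 1.33e-23). nc-tgp1, unlike nc-pho1, did not stay low in starved wild type, with means of 10.6 CPM at 4 h and 66.5 CPM at 48 h. Against its own 0 h level in wild type it was called lower at 4 h and was not called in either direction at 48 h. Of noncoding genes, 30.4% were called lower at 4 h and 35.6% at 48 h.

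fub2 (SPBP4G3.03), the next coding gene on the other side of pho1, changed more between strains at 0 h than pho1 did. fub2 had 0.75, 0.88 and 0.98 CPM in the deletion at 0 h, against 390, 404 and 393 CPM in wild type, a log2 change of -8.83 ± 0.20 (SE, edgeR adjusted p = 7.04e-31). In starvation it rose in the deletion, to a mean of 129 CPM at 24 h, and fell in wild type, to 20.8 CPM at 24 h. The strain difference in the change from 0 h to 24 h was 11.46 on the log2 scale, where 18.2% of genes were called higher. An annotated noncoding gene overlaps fub2, so its counts are uncertain. SPNCRNA.446, on the fub2 side as well, had a mean of 0 to 0.73 CPM in every group, which is too low for a fold change.

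**Figure D2:**
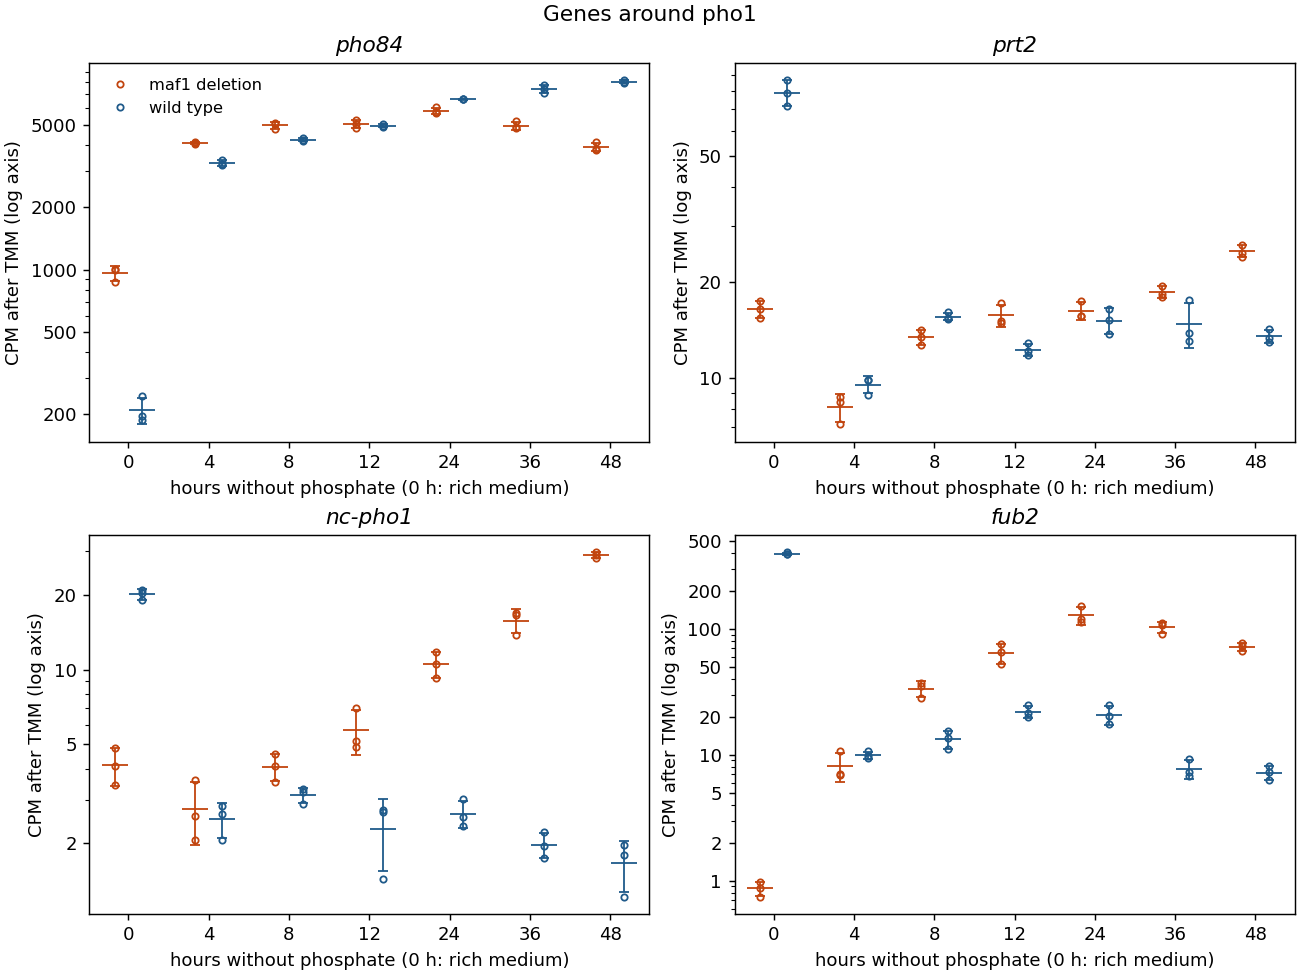
CPM (log axes, each panel with its own range) of pho84, prt2, nc-pho1 and fub2 by hours without phosphate, with maf1 deletion libraries left of wild-type libraries; open circles are single libraries, long bars the mean and capped bars the SD (n = 3 each). At 0 h pho84 is higher in the deletion and the other genes are lower; nc-pho1 reaches 28.9 CPM on average in the deletion at 48 h, against 1.66 CPM in wild type.

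**Figure D3:**
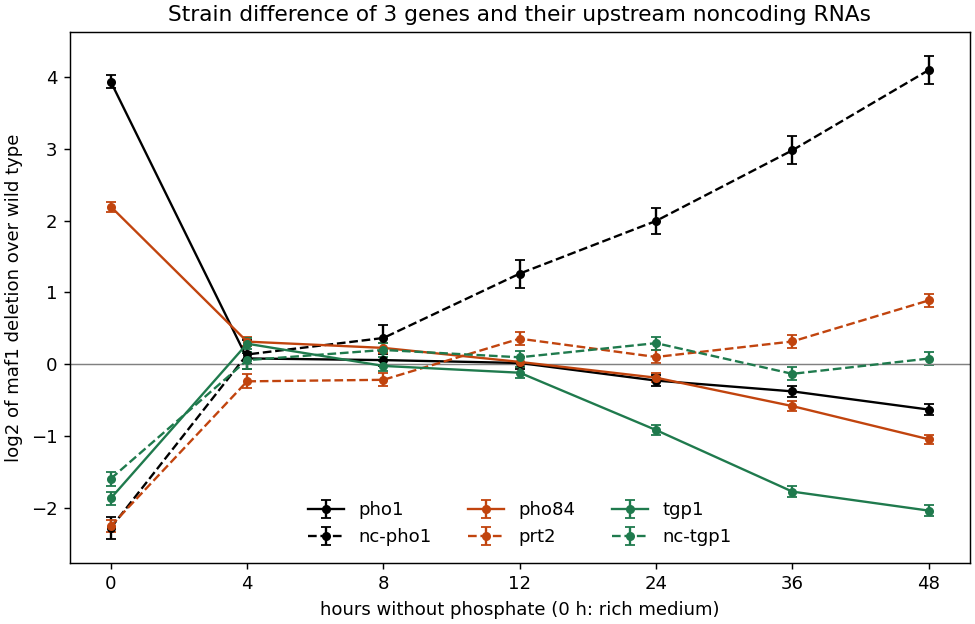
Log2 change of the maf1 deletion over wild type for pho1, pho84 and tgp1 (solid lines) and the noncoding RNAs upstream of them (dashed lines of the same colour), by hours without phosphate; bars are standard errors. At 0 h all the noncoding RNAs are below 0 while pho1 and pho84 are above it and tgp1 is below it; at 48 h nc-pho1 stands at 4.10 and pho1 at -0.63.

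The list of phosphate acquisition genes held 7 members beside pho1. They were pho84, tgp1, the transporter genes pho842 and pho841, vtc4 of the vacuolar polyphosphate polymerase, and the paralogous subtelomeric genes SPBPB2B2.06c and SPAC1039.02, whose shared sequence makes their counts uncertain. In the deletion 7 of 7 rose at 4, 8 and 12 h, 5 of 7 at 24 and 36 h and 4 of 7 at 48 h, with medians of 2.02 to 3.23 on the log2 scale, where 15.7 to 23.5% of all genes were called higher. All 7 rose in wild type at each of the 6 times, with medians of 3.97 to 5.15, where 16.9 to 22.1% of all genes were called higher. The median of all genes lay between -0.03 and 0.03 in the deletion and between -0.01 and 0.05 in wild type. Those not called in the deletion at 48 h were pho842, at a log2 change of 0.73, SPAC1039.02 at 0.80 and vtc4 at 0.96.

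Between strains at 0 h, 3 of the 7 were called higher in the deletion, namely pho84, SPBPB2B2.06c (14.6 CPM in the deletion and 0.11 CPM in wild type) and SPAC1039.02 (3.49), and tgp1 was called lower, where 13.8% of all genes were called higher and 15.9% lower. At 24 h 0 were higher and 3 lower, where 6.96% of all genes were called higher and 6.2% lower. At 48 h 0 were higher and 4 lower, where 14.3% of genes were called higher and 8.17% lower. The 4 lower at 48 h were pho84, tgp1, pho842 at a log2 change of -2.69 and SPBPB2B2.06c at -2.30. The median of the 7 at 48 h was -1.05, against -0.01 for all genes. pho1, at -0.63, had a smaller difference at 48 h than this median.

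Other genes whose products the deposited tables name acid phosphatases were 2, pho4 and SPBC4.06. pho4, the thiamine-repressible acid phosphatase, averaged 203 CPM in the deletion at 0 h and 112 CPM in wild type at 0 h. In the deletion pho4 had log2 changes over 0 h of -0.92, -1.28, -1.47, -1.74, -1.95 and -2.06 at 4, 8, 12, 24, 36 and 48 h, and was called lower from 8 h onwards. The called-lower shares of all genes in the deletion were 16.9% at 8 h, 18.2% at 12 h, 19.4% at 24 h, 18.7% at 36 h and 18.8% at 48 h. In wild type the pho4 values were 0.06, -0.27, -0.29, -0.68, -1.17 and -0.97 at the same times, called lower at 36 h alone, where 20.5% of genes were called lower. The strain difference in the pho4 change was called at 8, 12, 24 and 48 h, at -1.005 to -1.18, where 14.8 to 18.2% of genes were called lower, and lay under the 2-fold bound at 4 h (-0.98) and 36 h (-0.78). SPBC4.06 was called higher at 4 and 8 h in both strains, with log2 changes of 1.19 and 1.17 in the deletion and 1.13 and 1.09 in wild type. The called-higher shares of all genes were 15.7% at 4 h and 20% at 8 h in the deletion, and 16.9% at 4 h and 21.5% at 8 h in wild type. From 12 h onwards SPBC4.06 lay between 0.82 and 0.95 in the deletion and between 0.69 and 0.93 in wild type and was not called.

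Regulators of pho1 were measured as a list of 20 genes. At 0 h 4 were called higher in the deletion and 1 lower, with a median of 0.35 against 0.12 for all genes, where 13.8% of all genes were called higher and 15.9% lower. The 4 were ssu72, a phosphatase of the RNA polymerase II tail in the cleavage and polyadenylation factor (log2 change 2.13), aps1, an inositol pyrophosphatase (1.72), duf89, a metal-dependent phosphatase (1.62), and siw14, another inositol pyrophosphatase (1.50). The lower one was mmi1, which encodes the YTH-domain protein that marks meiotic transcripts for removal (-1.14), named after its value was seen. The activator gene pho7 had a log2 change of -0.69 there, and asp1, which encodes the inositol pyrophosphate kinase, had -0.59. csk1, which encodes a kinase that activates cyclin-dependent kinases and is known to repress pho1, had -0.44, and none of these 3 was called.

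In starvation fewer regulators were called over the strain's own 0 h in the deletion than in wild type at each of the 6 times. At each time 1 or 2 of the 20 were higher and 1 or 2 lower in the deletion, and 4 to 9 were higher and 2 to 4 lower in wild type. Of all genes, 30.9 to 42.3% were called in either direction in the deletion and 34.9 to 42.5% in wild type. The difference in counts was not tested. In the deletion 2 were higher and 1 lower at 24 h, namely asp1 (log2 change 1.65), pqr1 (1.22) and dis2 (-1.33), with a median of -0.20, where 22.2% of genes were called higher and 19.4% lower. pqr1, listed as spx1, encodes an SPX-domain ubiquitin ligase, and dis2 encodes a protein phosphatase of the cleavage and polyadenylation factor. In wild type 6 were higher and 2 lower at 24 h, with a median of 0.59, where 22.1% of genes were called higher and 18.8% lower. The 4 largest changes were siw14 (2.60), ssu72 (2.12), mmi1 (-1.46) and asp1 (1.38). The all-gene median at 24 h was -0.01 in the deletion and 0.01 in wild type. asp1 rose at all 6 times in both strains. pho7 was not called at any of the 6 times in either strain, and its mean CPM at 24 h was 82.8 in the deletion and 95.6 in wild type. csk1 fell at 4 h in both strains, by log2 changes of -1.17 in the deletion and -1.54 in wild type, where 15.2% and 18% of genes were called lower. Between strains, 0 of the 20 regulators were called at 4, 8, 12, 24 and 36 h, against 6.81 to 17.9% of all genes. At 48 h 0 regulators were higher and 2 lower in the deletion than in wild type, mmi1 (-1.11) and red1 (-1.06), which encodes a scaffold of nuclear RNA elimination. Of all genes, 14.3% were called higher and 8.17% lower there.

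**Figure D4:**
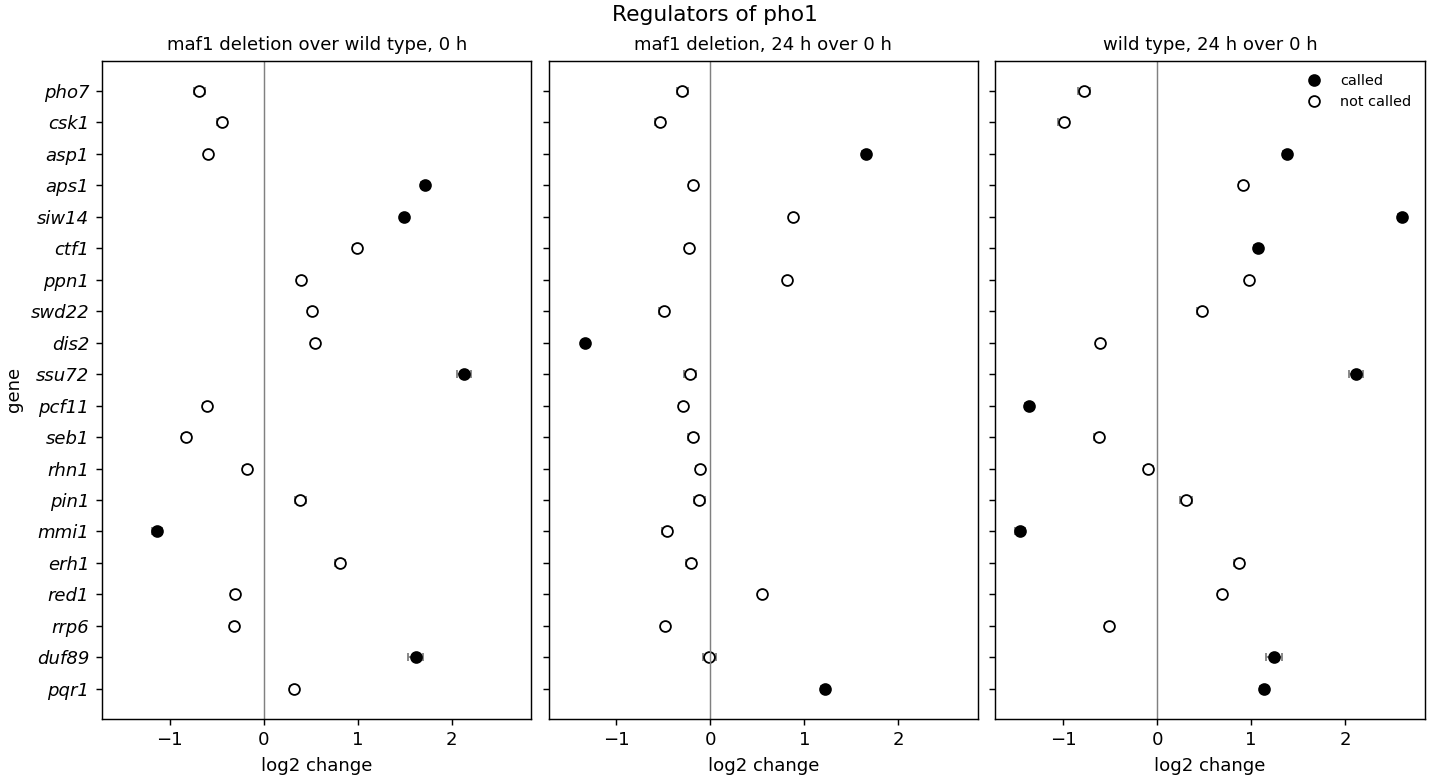
Log2 changes of the 20 regulators of pho1 for the maf1 deletion over wild type at 0 h (left), the deletion at 24 h over its 0 h (middle) and wild type at 24 h over its 0 h (right); bars are standard errors and filled circles are called genes. Filled circles number 5 on the left, 3 in the middle and 8 on the right.

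Over the 14 groups, the genes whose mean log2(CPM + 1) had the highest Pearson's r to that of pho1 were aah2 (0.987), atd1 (0.982), pho84 (0.980), ecl3 (0.980), atg1 (0.979) and dli1 (0.976). They were taken from 2218 genes whose group means spanned at least 2 on that scale. aah2 encodes an alpha-amylase homolog, atd1 a predicted aldehyde dehydrogenase, ecl3 an extender of chronological lifespan, atg1 the kinase that starts autophagy, and dli1 a dynein light intermediate chain. The 14 points share strains and libraries, and the 0 h groups lie far from the rest, so r is a description that rests largely on them. Over the 12 starved groups alone, r was 0.479 for aah2, the lowest of the 6, and 0.943 for atg1, the highest. Most of the 6 genes also changed with the measure of likeness, as given in the last section. pho1 itself spanned 8.94 on this scale over the 14 groups and 1.14 over the 12 starved groups. Among the 6 genes, atd1 spanned 7.13, ecl3 6.83 and aah2 2.29.

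Within the 12 starved groups the genes of highest r, among the same 2218, were gpd3 (r of 0.963), ubp16-antisense-1 (0.954), SPBC887.17 (0.951) and atg1 (0.943). They differed from pho1 in size of change, with spans over these groups of 2.26, 4.13, 2.73 and 0.56, against 1.14 for pho1. gpd3 encodes glyceraldehyde 3-phosphate dehydrogenase and SPBC887.17 a predicted transmembrane transporter. atg1 was in both sets. pho84 stood 3 in order of r over the 14 groups and 203 over the 12 starved groups (r of 0.653), and tgp1 stood 187 and 38. gpd3 averaged 8131 CPM in the deletion at 48 h and 20777 CPM in wild type, a log2 change of -1.35, in the groups in which pho1 was lower in the deletion.

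**Figure D5:**
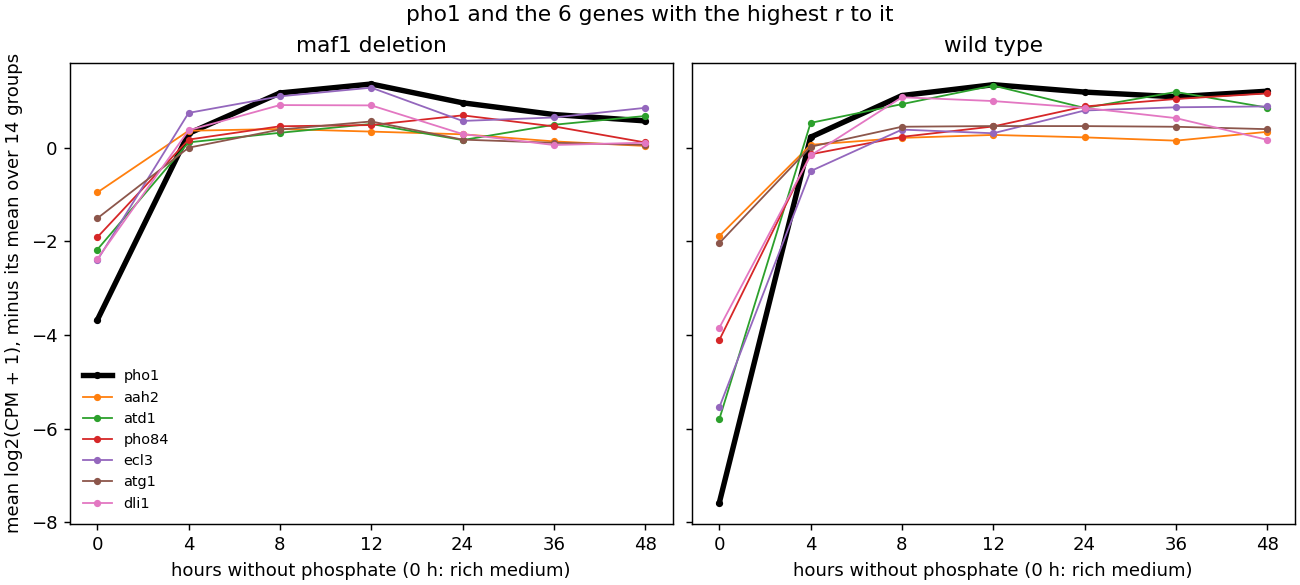
Mean log2(CPM + 1) of pho1 (thick black line) and of the 6 genes with the highest r to it, each minus its mean over the 14 groups, by hours without phosphate in the maf1 deletion (left) and wild type (right). All the lines are lowest at 0 h, pho1 has the widest span at 8.94, and the lines differ in shape among the starved times.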

How the data were processed

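Poly(A) RNA was sequenced from 42 libraries (stranded, paired-end, per the labels' protocols). Per the submitters' processing notes, HISAT2 2.1.0, SAMtools, HTSeq 0.10.0 and DESeq2 were used with the assembly ASM294v2; counting settings are not given in the sources used here. The deposited count table holds expected counts in form: 6.51% of its values are 0.5 and all others whole, so values were rounded, with 0.5 taken as 0. Its 6989 lines hold 6988 identifiers, since lines sharing an ID were summed. The deposited comparison tables hold log2 fold changes with standard errors, p-values and adjusted p-values, and the authors' normalised group means (signal, per the file headers), used only where named. The deposited symbols name 4982 genes, and the reference gene table a further 101.

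Counts were fitted with edgeR 4.0.16 (R 4.3.3; TMM, filterByExpr, quasi-likelihood), with 1 mean per group over all 42 libraries (28 residual degrees of freedom) and Benjamini-Hochberg adjustment over the 6521 genes kept; all listed genes passed that filter. pho1 counts per library were 31007 to 1156780 in the deletion and 1333 to 574467 in wild type, so its precision is set by the spread between libraries (square root of its dispersion 0.0635). Replicates of a group differed by more than counting noise in every group (chi-square per degree of freedom 4.00 to 38.7). Alternatives were other normalizations, DESeq2 1.42.0, no filter, a replicate block, smaller fits and leaving out each library.

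Genes named are pho1, its neighbours with counts, the genes most like it, the phosphate genes, and of the regulators pho7, csk1, asp1 and the 4 called members with the largest change per comparison. pho1 and these lists were chosen with earlier results of these data known. The reference gene table is of a newer assembly, so no coordinates are printed. It gave names, gene order and lengths, and the reference annotation gave the overlap and strand of nc-pho1 and pho1. Other acid phosphatases were taken by deposited product name in place of a protein comparison, and the listed pho88 was not matched. Same-numbered replicates were not treated as pairs: over 91 pairs of groups, 18 had all 3 correlations of deviations over 0.1.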

Additional observations from a re-analysis of the deposited data

Results flagged for a closer look

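Each value here is the strain difference in a change over time, the log2 change in the maf1 deletion minus that in wild type. Each had an adjusted p under 0.05 in the edgeR quasi-likelihood test of the difference itself. Most genes did so too: 78.1 to 84.2% of all genes for the changes over 0 h and 55.3% for 48 h over 24 h. The pho1 value for 48 h over 24 h and the tgp1 value lay under the 2-fold bound. For pho1 over 0 h it was -3.86, -3.88, -3.92, -4.17, -4.32 and -4.57 at 4, 8, 12, 24, 36 and 48 h, and for 48 h over 24 h it was -0.40. For nc-pho1 over 0 h it was 2.42, 2.65, 3.55, 4.28, 5.26 and 6.38 at the same times, and 2.103 for 48 h over 24 h. At 24 h over 0 h it was 11.46 for fub2, -2.39 for pho84 and 0.95 for tgp1. The values over 0 h share the 0 h libraries of both strains. Library totals differed between the strains, and the part of depth in these differences was not tested.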

How the results depend on the processing

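All called pho1 results kept their call and direction under the alternatives run. With the replicate block, pho1 in the deletion over wild type was 3.94 at 0 h and -0.63 at 48 h, and the block changed no pho1 call. Summing pho1 and nc-pho1 lowered the wild-type changes over 0 h the most, to 7.43 at 4 h. Sign changes were limited to differences near 0: pho1 at 48 h over 24 h in wild type was -0.031 with library size alone and -0.00360 to 0.0346 with 1 library left out, pho1 in the deletion over wild type at 12 h was -0.023 to 0.076 with 1 library left out, and nc-pho1 at 8 h over 0 h in the deletion was 0.076 with library size alone and -0.14 to 0.11 with 1 library left out. With 1 library left out, nc-pho1 in wild type at 24 h over 12 h was -0.039 to 0.27, and in the deletion over wild type at 4 h -0.11 to 0.30. nc-pho1 at 24 h over 12 h in the deletion (0.88) passed the 2-fold bound without deletion replicate 2 of 12 h (1.06).

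For small pho1 steps, none called, the adjusted p crossed 0.05 under some settings. With library size alone this held for 12 h over 8 h (0.0896) and 36 h over 24 h (0.0278) in wild type and for 48 h over 36 h in the deletion (0.0426). With DESeq2 it held for 24 h over 12 h in wild type (0.0337) and 12 h over 8 h in the deletion (0.0144), a step that also crossed it with DESeq2 size factors (0.0458) and protein-coding genes alone (0.03). In a fit of only the groups compared it held for 24 h over 12 h in wild type (0.0187). With 1 library left out it held for 12 h over 8 h in both strains, in the deletion without 12 h replicate 2 (range 0.0264 to 0.179) and in wild type without 8 h replicate 1, 12 h replicate 1 or 12 h replicate 2 (range 0.0144 to 0.0656). With library size alone, 494 genes were called higher and 1348 lower in the deletion at 0 h, against 901 and 1036, and the all-gene median was -0.16 in place of 0.12. Library size alone also moved the split of higher and lower calls by over 10 percentage points in the strain differences over 0 h and in wild type from 12 h, for example to 1102 and 1854 at 36 h, against 1433 and 1337. Among the 5049 protein-coding genes alone the counts in the deletion over wild type at 0 h were 453 and 661, with a median of 0.030; the cause was not tested. Of the 6 genes most like pho1, 1 was among the top 6 by Spearman's rho and 2 by root mean square difference. By CPM pho1 ranked 203 in the deletion at 0 h and 3116 in wild type at 0 h. The planned promoter motif search and the protein comparison were not run. The smallest counts limit nc-pho1 in starved wild type.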
